A study of Mus musculus with 9 samples.

Results

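Limb-level motor neurons from the fifth lumbar level of the cord (L5) were compared with motor neurons of the oculomotor nucleus of the midbrain (OMN), using the 3 arrays titled for each pool, 6 of the 9 arrays of the study. The animals were wild-type C57BL/6J males at postnatal day 7, with no treatment, and all arrays carry RNA of motor neurons cut by laser from 12 µm sections stained with cresyl violet. About 200 cells of a pool were taken from each animal, and an input of at least 1.5 ng RNA went through amplification before hybridisation to Affymetrix Mouse Genome 430 2.0 arrays. The remaining 3 arrays hold the dorsolateral nucleus (DL) at the sixth lumbar level. These arrays entered the fit only to estimate the spread, but they also counted in the choice of probe sets and in the noise level. The labels give the segment or nucleus but not the muscles, columns or alpha and gamma types that a pool contained, and each array sums what was cut with about 200 cell bodies. In such pooled samples, fewer cells of a type and less RNA per cell cannot be told apart. The comparison covers 18193 named genes, and the families described here lie outside the Hox genes and the midbrain patterning factors.

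Motor neurons release acetylcholine onto muscle and receive glycine, GABA, glutamate, monoamine and peptide inputs, so that their receptor and channel genes set how they fire. Limb motor neurons drive large motor units of skeletal muscle, whereas oculomotor neurons drive small eye muscle units at high sustained rates and receive their input from brainstem gaze circuits. In amyotrophic lateral sclerosis (ALS) limb motor neurons degenerate while oculomotor neurons are relatively spared, and the study compared pools of unlike vulnerability.

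On the L5 and OMN arrays 69.4% to 71.5% of genes exceeded 18.3, the highest reading of the bacterial control probe sets, taken here as the noise level. The ratio of 3' to 5' Gapdh probe sets was 2.33 to 2.67, and arrays correlated at 0.956 to 0.967 within L5, 0.964 to 0.969 within OMN and 0.875 to 0.895 between the pools. Both pools carried the cholinergic genes of motor neurons. Slc5a7, the choline transporter, read 4979, 3826 and 3415 on L5 arrays 1 to 3 and 4188, 4192 and 3942 on OMN arrays 1 to 3. Slc18a3, the vesicular acetylcholine transporter, read 2294, 3574 and 2616 in L5 and 2755, 1997 and 2682 in OMN. The pools overlapped in both genes and in Ache and Ret. The probe set for Chat, the acetylcholine synthase, was at or near the noise level, at most 12.8 in L5 and 24.5 in OMN. The motor neuron label was therefore checked on the transporters, Isl1 and Prph, which were bright in both pools.

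limma called 392 of 18193 genes at an adjusted p under 0.05, which is 2.15% of those tested, with 173 higher in L5 (0.951%) and 219 lower (1.2%). In all 392 called genes the 3 arrays of one pool lay above the 3 of the other, as they did in 27.4% of all genes. At an unadjusted limma p under 0.05 there were 2904 of the 18193 genes, the background for such counts in the lists below. The called differences ran from 7.20 to -4.88 on the log2(intensity + 16) scale, the smallest measured 0.94, and 149 were of 2 or more in size. Hox genes and midbrain factors made up 29 of the calls, which left 153 genes higher and 210 lower. Of the 70 family lists, 21 held no called gene, 14 held calls higher in L5 only, 15 calls lower in L5 only and 20 calls in both directions. Their 1927 measured members included 121 called genes, or 6.28%, but the lists were chosen with earlier results of these data known. Each call rests on few arrays. Leaving out any one of the 6 L5 or OMN arrays left between 82 and 107 calls, and 66 of the 392 genes kept their call whichever of the 9 arrays was left out. Of the 133 called genes named by rule 98 lost the call without at least 1 of the 6, among them the 34 that lost it without a DL array. The other 35, which kept the call whichever of the 9 arrays was left out, are said below to have held, and for the others the highest adjusted p with 1 of the 6 arrays left out is given. Calls of single probe sets come from a separate fit over 45037 of them with its own adjustment, in which 57 of the 224 called genes with more than 1 probe set had more than 1 called in the same direction.

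**Figure D1:**
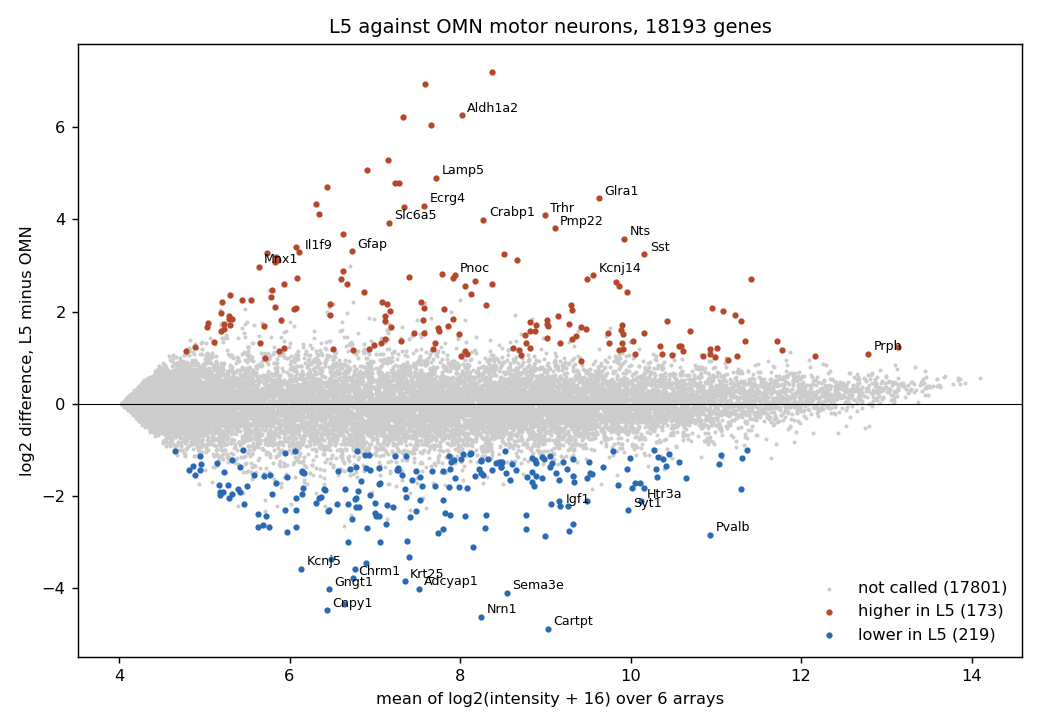
Each point is 1 of 18193 genes, with its mean log2(intensity + 16) over the 6 L5 and OMN arrays on the horizontal axis and its log2 difference, L5 minus OMN, on the vertical axis. The 173 genes called higher in L5 are red and the 219 called lower are blue, named examples are outside the Hox and midbrain lists, and the called genes reach from 7.20 to -4.88.

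**Figure D2:**
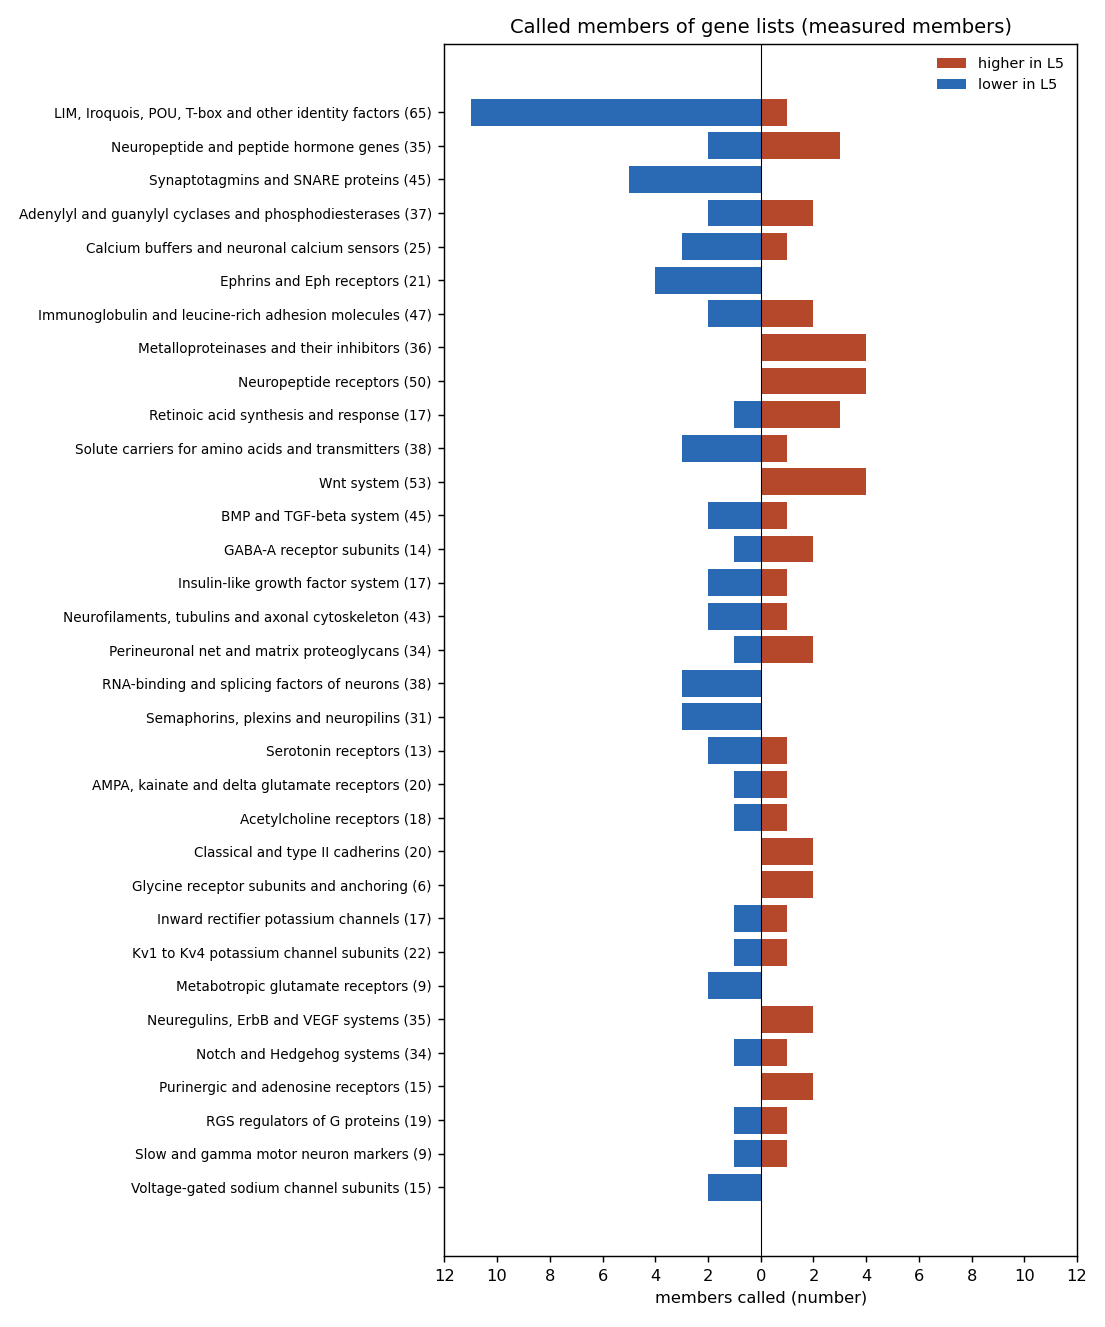
Bars give the number of members called higher in L5 (red, to the right) or lower in L5 (blue, to the left) in family lists with at least 2 calls, with the number of measured members in parentheses. Synaptotagmins and SNARE proteins, ephrins and Eph receptors, semaphorins and metabotropic glutamate receptors have calls on the lower side only, and neuropeptide receptors, metalloproteinases and the Wnt system on the higher side only.

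Neuropeptide genes showed large differences in both directions. Of 35 measured, 3 were higher in L5 and 2 lower, with a list median of 0.25 against 0.01 over all genes. Sst, the precursor of somatostatin, a peptide that acts on inhibitory receptors, read 2473, 3727 and 4694 in L5 and 470, 272 and 354 in OMN. Nts, the neurotensin precursor, read 4232, 3419 and 2587 in L5 against 271, 289 and 240. Pnoc, the precursor of nociceptin, read 655, 666 and 570 in L5 and 66.9, 84.3 and 81.9 in OMN. The lowest L5 array of each of these genes stood several times above the highest OMN array, and the log2 differences were 3.24 ± 0.31 (SE) for Sst, 3.58 ± 0.37 for Nts and 2.79 ± 0.19 for Pnoc (limma adjusted p = 0.00366, 0.00557 and 0.00089). Cartpt, the precursor of the CART peptide, ran the other way at 78.9, 78.4 and 84.0 in L5 and 3207, 3930 and 1778 in OMN, a log2 difference of -4.88 ± 0.27. Adcyap1, the precursor of the peptide PACAP, stood at 30.7, 18.4 and 43.4 in L5 and at 739, 632 and 795 in OMN, with a log2 difference of -4.01 ± 0.50 (adjusted p = 0.0116). Sst, Pnoc and Cartpt held. Nts lost its call without OMN replicate 2 (adjusted p = 0.0518), and Adcyap1 lost it without any array of the 6 but OMN replicate 1 (up to 0.0773).

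A gene from each direction carries the palindromic cAMP response element TGACGTCA, the site known for binding CREB, in its promoter, and both windows are printed to show where it lies. The windows are the 250 bases before the annotated start, 5′ to 3′ on the gene's strand, from RefSeq on GRCm38.p6, at chr16:23890845-23891094 (minus strand) for Sst and chr13:99900684-99900933 (minus strand) for Cartpt, with the element in capitals.
Sst promoter: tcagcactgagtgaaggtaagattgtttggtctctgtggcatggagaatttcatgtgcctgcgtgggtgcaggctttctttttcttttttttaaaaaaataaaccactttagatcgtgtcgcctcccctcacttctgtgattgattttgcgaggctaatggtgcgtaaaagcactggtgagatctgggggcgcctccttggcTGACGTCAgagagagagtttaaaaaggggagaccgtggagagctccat
Cartpt promoter: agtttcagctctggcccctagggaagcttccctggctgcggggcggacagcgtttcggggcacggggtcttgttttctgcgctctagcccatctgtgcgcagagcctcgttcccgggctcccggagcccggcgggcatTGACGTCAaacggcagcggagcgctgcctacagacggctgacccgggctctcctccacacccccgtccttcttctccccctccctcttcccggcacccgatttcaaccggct
The element starts 48 bases before the start of Sst and 112 bases before that of Cartpt. It was searched as these letters, which read the same on both strands, and 508 of 32851 RefSeq promoter windows of that length (1.55%) held it. The windows of Nts and Adcyap1 did not hold these letters, and no promoter entry was found for Pnoc. No binding was measured in these data.

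Peptide receptors were called in 1 direction, with 4 of 50 measured higher in L5 and 0 lower, although the list median was -0.06. L5 lay wholly above OMN in 9 members and wholly below in 8, against 14.6% and 12.7% of all genes, so only the calls were one-sided. Trhr, the receptor for thyrotropin-releasing hormone, read 2633, 2028 and 1693 in L5 and 78.9, 105 and 148 in OMN (log2 difference 4.09 ± 0.34, limma adjusted p = 0.0025). Npr3, the clearance receptor for natriuretic peptides, read 734, 754 and 647 against 109, 128 and 68.4 (2.66 ± 0.33). Tacr3, the neurokinin B receptor, read 309, 216 and 188 against 34.9, 16.1 and 17.3, with 2 of 3 OMN arrays below the noise level, and was at least 10.2-fold higher in L5. Each of these genes was clear of overlap. Npy2r, a receptor for neuropeptide Y, averaged 125 ± 29.4 in L5, where ± after an intensity is the SD over n = 3 arrays, and 17.0 ± 4.94 in OMN, which makes L5 at least 6.23-fold higher. Trhr held. Npr3 and Npy2r lost their calls without 4 of the 6 arrays (adjusted p up to 0.0818 and 0.0723) and Tacr3 without each of them (up to 0.143).

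Serotonin receptors split, with 1 of 13 higher in L5 and 2 lower. Htr3a, the serotonin-gated cation channel, read 563, 600 and 419 in L5 and 2287, 2296 and 2318 in OMN (log2 difference -2.11 ± 0.21, limma adjusted p = 0.00457). Htr1d, an inhibitory G protein-coupled serotonin receptor that is also listed as a gamma motor neuron marker, read 140, 178 and 46.5 against 648, 790 and 937 (-2.69 ± 0.37). Htr2c, a receptor that raises motor neuron excitability, read 358, 330 and 261 in L5 and 107, 135 and 111 in OMN (1.31 ± 0.23). OMN was thus the brighter pool for Htr3a and Htr1d and L5 for Htr2c. Among purinergic receptors 2 of 15 were higher in L5 and 0 lower, both ATP-gated channels. P2rx6 read 289, 288 and 248 in L5 against 59.0, 33.8 and 85.3, and P2rx5 read 329, 395 and 366 against 94.8, 107 and 113. Chrm1, the M1 muscarinic receptor, was the stronger of the acetylcholine receptor calls (1 of 18 higher, 1 lower), with 8.2, 3.9 and 34.4 in L5 and 507, 270 and 408 in OMN, at least 16.9-fold lower in L5 (adjusted p = 0.00154). Chrna5, a nicotinic subunit, was dim in both pools, at 41.5 ± 20.5 in L5 and 5.77 ± 1.77 in OMN. Adrenergic and dopamine receptors gave 0 calls among 6 measured, with 2 at an unadjusted p under 0.05, Adra2c at 161, 183 and 120 in L5 and 84.6, 33.6 and 43.1 in OMN (adjusted p = 0.054) and Drd2 near or under the noise level in both. Htr3a and Chrm1 held. Htr1d lost its call without any of the 6 arrays but L5 replicate 3 (adjusted p up to 0.0744), P2rx6 without 4 of them (up to 0.0985), and Htr2c, P2rx5 and Chrna5 without each of the 6 (up to 0.170, 0.189 and 0.148). Neither of the 2 probe sets of Htr2c was called in the fit of probe sets.

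**Figure D3:**
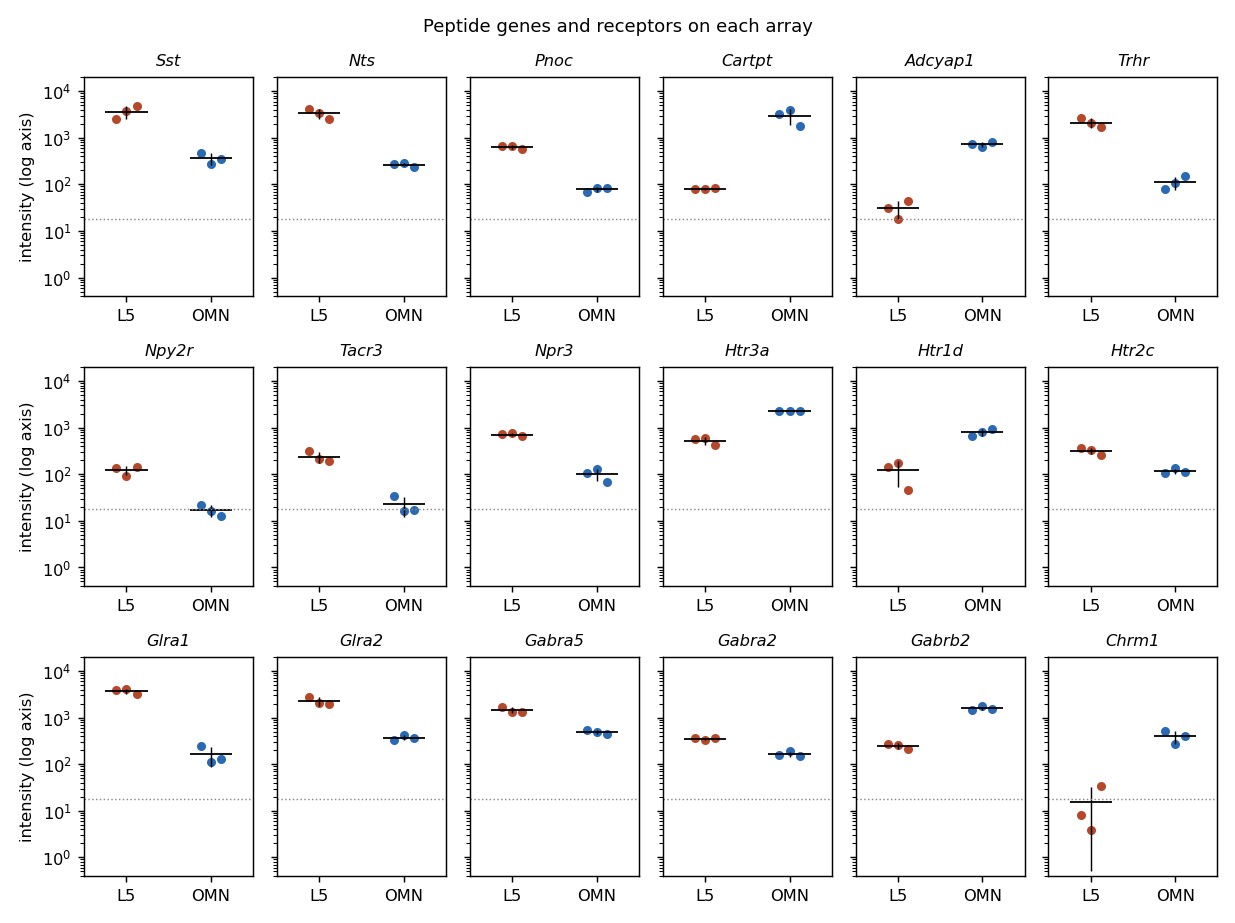
Dots show the intensity on each of the 3 L5 and 3 OMN arrays on a log axis for peptide genes and receptors, with the mean as a horizontal bar, the SD as a vertical bar cut off at 0.5, and the noise level of 18.3 dotted. The pools do not overlap in any of the genes drawn, Cartpt, Adcyap1, Htr3a, Htr1d, Gabrb2 and Chrm1 being brighter in OMN and the others in L5.

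Receptors for inhibitory transmitters differed between the pools in several subunits. Both glycine receptor alpha genes called were higher in L5, 2 of 6 list members, with a list median of 0.43. Glra1, the alpha subunit of adult glycine receptors, read 3864, 4058 and 3226 in L5 and 245, 111 and 128 in OMN (log2 difference 4.46 ± 0.27, limma adjusted p = 0.000615). Glra2, the alpha subunit that prevails early in development, read 2789, 2089 and 1911 against 328, 418 and 364 (2.55 ± 0.23, adjusted p = 0.00299). L5 exceeded OMN for the adult and the developmental subunit alike, and both held. Among GABA-A subunits 2 of 14 were higher and 1 lower. Gabra5, an alpha subunit of extrasynaptic receptors, read 1700, 1320 and 1319 in L5 against 534, 499 and 434, and Gabra2, an alpha subunit of synaptic receptors, read 371, 337 and 357 against 155, 187 and 152, with 0 of its 5 probe sets called. Gabrb2, a beta subunit, was the exception at 276, 257 and 207 in L5 and 1461, 1742 and 1522 in OMN (-2.60 ± 0.31), called with 1 of its 5 probe sets. Gabra5 and Gabra2 lost their calls without each of the 6 arrays (adjusted p up to 0.0983 and 0.176) and Gabrb2 without any of them but L5 replicate 1 (up to 0.0773). GABA-B receptors gave 0 calls among 4 measured genes and 0 at an unadjusted p under 0.05, with Kctd8, an auxiliary subunit, at 418, 467 and 326 in L5 and 428, 414 and 261 in OMN.

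Glutamate receptor genes that passed the test were mostly regulators and metabotropic receptors. Of 9 metabotropic receptors 0 were higher in L5 and 2 lower, and in 7 of the 9 all OMN arrays lay above all L5 arrays, against 12.7% of all genes. Their median was -0.91. Grm5, a receptor of group I that mobilises calcium, read 281, 401 and 153 in L5 and 1102, 1322 and 1094 in OMN (log2 difference -2.10 ± 0.37, limma adjusted p = 0.038). Grm7, a presynaptic receptor of group III, read 364, 300 and 332 against 719, 856 and 914 (-1.28 ± 0.22). Among AMPA, kainate and delta receptor genes 1 of 20 was higher and 1 lower, both auxiliary proteins. Cacng5, a TARP subunit, read 1187, 1474 and 1290 in L5 against 235, 284 and 345, and Neto1, a kainate receptor partner, read 682, 607 and 698 against 1375, 1568 and 1617. NMDA subunits gave 0 calls among 6, with 3 at an unadjusted p under 0.05 and Grin2b at 525, 303 and 280 in L5 and 237, 113 and 200 in OMN (adjusted p = 0.134). All calls of this group were lost on leaving out arrays, Cacng5 without any of the 6 but OMN replicate 3 (adjusted p up to 0.135), Grm5, Grm7 and Neto1 without each of them (up to 0.166, 0.169 and 0.157). Of the 2 probe sets of Grm5 and the 3 of Grm7, 0 were called.

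Potassium channels differed in a few members only. Inward rectifiers had 1 of 17 higher in L5 and 1 lower. Kcnj14, which encodes the Kir2.4 channel known from cranial motor nuclei, read 2050, 1873 and 1995 in L5 and 359, 205 and 267 in OMN (log2 difference 2.79 ± 0.30, limma adjusted p = 0.00598). Kcnj5, a G protein-gated inward rectifier, read 0.6, 14 and 0.9 in L5 and 193, 246 and 247 in OMN, at least 12.4-fold lower in L5 (adjusted p = 0.00366). Among Kv1 to Kv4 genes 1 of 22 was higher and 1 lower. Kcnd3, the Kv4.3 channel of the transient A-type current, read 101, 129 and 136 in L5 against 1038, 581 and 605 (-2.42 ± 0.27), while Kcnab2, an auxiliary beta subunit, read 1270, 1603 and 1293 against 645, 559 and 608 (1.17 ± 0.21). Kcnn1, a small-conductance calcium-activated channel of the afterhyperpolarisation, was lower at 201, 184 and 215 in L5 and 654, 682 and 661 in OMN, the 1 call among 19 leak and calcium-activated channel genes. The Kv5 to Kv12 and modifier genes gave 0 calls among 22, with 7 at an unadjusted p under 0.05 and Kcnq5 at 293, 277 and 182 against 34.8, 38.0 and 164 (adjusted p = 0.14). Kcnj5 held. Kcnj14 lost its call without L5 replicate 2 or OMN replicate 2 (adjusted p up to 0.0535), Kcnd3 without any one L5 array (up to 0.0514), and Kcnab2 and Kcnn1 without each of the 6 arrays (up to 0.173 and 0.186). Kcnab2 and Kcnn1 have 2 probe sets each, of which 0 were called.

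Of 15 sodium channel genes 0 were higher in L5 and 2 lower. Scn3a, an alpha subunit abundant in the developing brain, read 397, 379 and 498 in L5 and 1239, 1318 and 1113 in OMN (log2 difference -1.50 ± 0.20, limma adjusted p = 0.0147). Scn7a, an atypical sodium channel, stayed at noise level in L5 with 9.7, 1.9 and 3.1 and read 104, 104 and 131 in OMN, at least 6.12-fold lower in L5. Scn7a held, and Scn3a lost its call without any of the 6 arrays but L5 replicate 3 (adjusted p up to 0.0999). Voltage-gated calcium channels gave 0 calls among 16 measured, with 7 at an unadjusted p under 0.05. Cacna1b, the N-type channel, read 947, 901 and 698 in L5 against 1469, 1342 and 1427 (adjusted p = 0.137), and Cacna1e, the R-type channel, read 2167, 1586 and 2216 against 1182, 1253 and 1162 (adjusted p = 0.203), so that neither pool overlapped the other but neither gene passed. HCN, TRP, acid-sensing and chloride channels gave 0 calls among 25 and 6 at an unadjusted p under 0.05, with Asic2 closest at 530, 583 and 435 in L5 and 155, 199 and 210 in OMN (adjusted p = 0.0585). Chloride transporters and ion pumps gave 0 calls among 14 and 2 at an unadjusted p under 0.05.

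Of 25 calcium buffers and sensors 3 were called lower in L5 and 1 higher, while the list median was 0.23. L5 lay wholly above OMN in 8 members and wholly below in 6, against 14.6% and 12.7% of all genes. Pvalb, a fast cytosolic calcium buffer, read 541, 746 and 905 in L5 and 5170, 5394 and 5100 in OMN (log2 difference -2.84 ± 0.22, limma adjusted p = 0.00165), and it held. Hpcal4 and Necab1, calcium sensors, stood at 38.2 ± 1.85 and 21.6 ± 14.3 in L5 and at 214 ± 79.2 and 125 ± 27.2 in OMN, with Necab1 below the noise level on 2 of 3 L5 arrays. Hpcal1, a sensor of the same visinin-like family as Hpcal4, was on the other side at 2460, 2913 and 2547 in L5 and 1198, 1251 and 1387 in OMN. Of 29 genes of calcium pumps, stores and exchange 1 was higher, Itpr3, an inositol trisphosphate receptor, at 42.1 ± 6.00 in L5 and 2.43 ± 1.63 in OMN and at least 2.29-fold higher. Rcan3, a calcineurin regulator, was the 1 lower gene among 27 calcium-dependent kinases and phosphatases, at 290 ± 8.84 against 731 ± 119. Hpcal4, Necab1, Hpcal1 and Rcan3 lost their calls without each of the 6 arrays (adjusted p up to 0.142, 0.142, 0.173 and 0.143) and Itpr3 without 4 of them (up to 0.0634).

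Second messenger genes differed in both directions. Of 37 cyclase, phosphodiesterase and kinase A genes, 2 were higher in L5 and 2 lower. Pde1c, a calmodulin-dependent phosphodiesterase, read 2440, 2128 and 2224 in L5 and 549, 248 and 311 in OMN (log2 difference 2.64 ± 0.28, limma adjusted p = 0.00628, called with 1 of 6 probe sets). Prkar2b, a regulatory subunit of protein kinase A, read 873, 901 and 1110 against 231, 303 and 255 (1.81 ± 0.24). Gucy1a1, a subunit of the nitric oxide receptor guanylyl cyclase, was lower at 554, 544 and 501 against 1905, 2283 and 1671 (-1.83 ± 0.22). Pde3a, a phosphodiesterase inhibited by cyclic GMP, was lower too, at 67.7 ± 20.2 and 319 ± 67.1. Gngt1, a G protein gamma subunit best known from rod photoreceptors, read 1.7, 16.9 and 2.1 in L5 and 307, 362 and 352 in OMN, at least 18.6-fold lower, with 3 of 4 probe sets called and as the 1 call among 31 G protein genes. Rgs4, which shortens Gq and Gi signals, was higher at 2329, 1807 and 1676 in L5 and 656, 663 and 647 in OMN, and Rgs10, of the same family, was lower at 184 ± 34.7 and 452 ± 70.9. Gpx3, an extracellular glutathione peroxidase, was the 1 call among 25 genes of nitric oxide synthesis and oxidative defence, higher at 723 ± 133 in L5 against 254 ± 99.5. Gngt1 held. Pde1c lost its call without L5 replicate 2 or 3 (adjusted p up to 0.0579), Prkar2b, Gucy1a1, Pde3a and Gpx3 without 5 of the 6 arrays (up to 0.0976, 0.0773, 0.118 and 0.110), and Rgs4 and Rgs10 without each of the 6 (up to 0.0809 and 0.183).

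Genes of vesicle release were called in the direction of OMN alone. Of 45 synaptotagmins, SNARE and vesicle proteins 0 were higher in L5 and 5 lower, with a list median of -0.29. In 15 of the 45 all OMN arrays lay above all L5 arrays and in 6 the other way, against 12.7% and 14.6% of all genes. Calls lower in L5 made up 1.2% of all genes. Syt1, the calcium sensor of fast transmitter release, read 360, 569 and 397 in L5 and 2589, 1930 and 2154 in OMN (log2 difference -2.31 ± 0.25, limma adjusted p = 0.00628, 3 of 4 probe sets called). Doc2b, a high-affinity calcium sensor of spontaneous release, read 22.6, 70.1 and 40.0 against 326, 304 and 254 (-2.44 ± 0.30). Syt5 and Syt9, further synaptotagmins that bind calcium, stood at 57.7 ± 33.0 and 49.0 ± 11.4 in L5 and at 326 ± 139 and 190 ± 18.0 in OMN. Synpr, the vesicle protein synaptoporin, stood at 30.9 ± 15.9 and 148 ± 23.6, with 1 of 3 L5 arrays below the noise level. Syt1 lost its call without L5 replicate 3 or OMN replicate 1 (adjusted p up to 0.0548), Doc2b without 4 of the 6 arrays (up to 0.079), and Syt5, Syt9 and Synpr without each of them (up to 0.162, 0.106 and 0.176).

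Calls in axon guidance families were also lower in L5 only. Of 31 semaphorins, plexins and neuropilins 0 were higher in L5 and 3 lower, and of 21 ephrins and Eph receptors 0 and 4. Of 27 netrin, Slit and repulsive guidance genes 0 were higher and 1 lower, and 1 call sets no direction for that list. Over all genes 0.951% were called higher and 1.2% lower. Sema3e, a secreted ligand of PlexinD1, read 49.7, 112 and 72.4 in L5 and 1693, 1269 and 1668 in OMN (log2 difference -4.10 ± 0.28, limma adjusted p = 0.000865), with all 4 probe sets called. Plxna2, a semaphorin coreceptor, read 629, 393 and 464 against 1840, 1648 and 1572 (-1.76 ± 0.19). Sema3d, another secreted semaphorin, stood at 44.6 ± 26.7 in L5 and 281 ± 72.7 in OMN. These 3 were the calls of the semaphorin list, in which OMN lay wholly above L5 in 10 of 31 members and wholly below in 5. For all genes these shares were 12.7% and 14.6%. Epha6, a receptor for ephrin-A ligands, read 93.9, 91.3 and 68.3 in L5 and 490, 441 and 584 in OMN (-2.37 ± 0.21), and Epha7, of the same class, read 35.0, 27.0 and 24.5 against 191, 248 and 281 (-2.50 ± 0.32). The ephrin-B ligands Efnb3 and Efnb2 stood at 72.4 ± 24.4 and 212 ± 26.1 in L5 and at 294 ± 33.2 and 531 ± 13.4 in OMN, and Unc5d, a netrin receptor of the repulsive kind, at 133 ± 38.7 and 376 ± 76.9. OMN lay wholly above L5 in 8 of the 21 ephrin and Eph genes and wholly below in 3, and in 8 and 3 of the 27 netrin and Slit genes. Medians were -0.27, -0.43 and -0.37 in the semaphorin, ephrin and netrin lists against 0.01 over all genes. Sema3e and Epha6 held. Plxna2 lost its call without 4 of the 6 arrays (adjusted p up to 0.0597), Epha7 without any but L5 replicate 1 (up to 0.0837), and Sema3d, Efnb3, Efnb2 and Unc5d without each of the 6 (up to 0.176, 0.120, 0.197 and 0.199). Of the 4 probe sets of Efnb2, 0 were called.

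**Figure D4:**
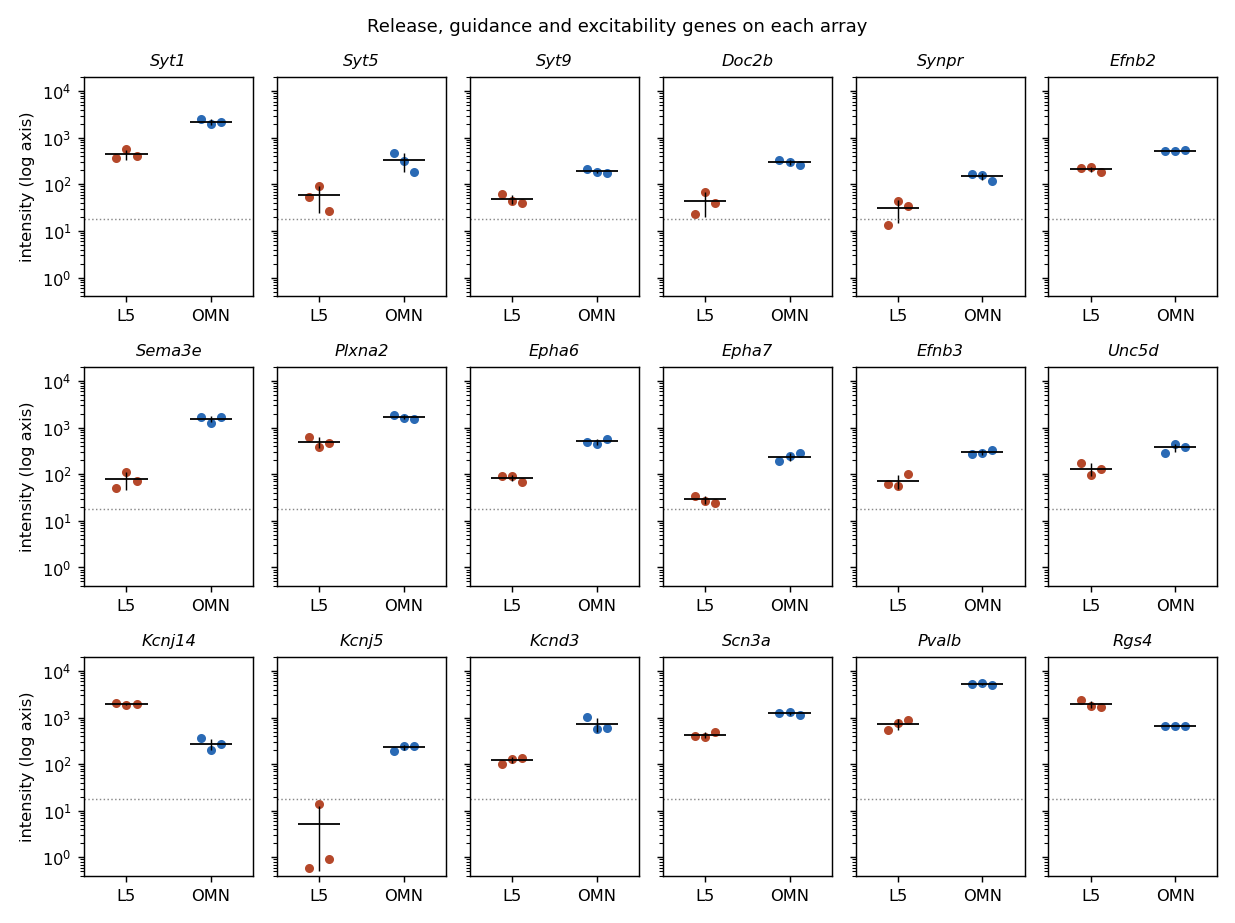
Dots show the intensity on each of the 3 L5 and 3 OMN arrays on a log axis for genes of release, axon guidance and excitability, with the mean as a horizontal bar, the SD as a vertical bar cut off at 0.5, and the noise level of 18.3 dotted. Kcnj14 and Rgs4 are brighter in L5 and the other genes drawn are brighter in OMN, with no overlap between the pools.

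Adhesion molecules gave calls in both directions. Of 20 cadherins 2 were higher in L5 and 0 lower, namely Clstn2, a postsynaptic calsyntenin, at 1549, 1502 and 1785 against 576, 444 and 662, and Cdh6, a type II cadherin, at 522, 345 and 471 against 82.6, 121 and 140 (log2 differences 1.51 ± 0.19 and 1.83 ± 0.24, limma adjusted p = 0.011 and 0.0146). Pcdh9 was the 1 call among 11 delta protocadherins and was lower, at 1853 ± 204 in L5 and 3729 ± 261 in OMN. Among 47 immunoglobulin and leucine-rich adhesion genes 2 were higher and 2 lower. Ncam1, a neural cell adhesion molecule, read 1142, 781 and 835 in L5 and 2846, 2427 and 3150 in OMN (-1.61 ± 0.24, 2 of 7 probe sets called). Cadm1, a synaptic adhesion molecule, stood at 1329 ± 184 and 3304 ± 274. The leucine-rich proteins Amigo1 and Lrrtm1, a partner of Kv2 channels and an organiser of excitatory synapses, were higher at 587 ± 26.4 and 384 ± 54.0 in L5 and 276 ± 24.9 and 173 ± 44.4 in OMN. Neurexins, neuroligins, teneurins and latrophilins gave 0 calls among 18 and 5 at an unadjusted p under 0.05, with Adgrl2 at 885, 934 and 850 against 504, 540 and 516 (adjusted p = 0.124). Ncam1 lost its call without any of the 6 arrays but L5 replicate 1 (adjusted p up to 0.126), and Clstn2, Cdh6, Pcdh9, Cadm1, Amigo1 and Lrrtm1 without each of the 6 (up to 0.0775, 0.0853, 0.188, 0.205, 0.181 and 0.202). Of the 3 probe sets of Pcdh9, the 5 of Amigo1 and the 3 of Lrrtm1, 0 were called.

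In the list of metalloproteinases and their inhibitors 4 of 36 members were called higher in L5 and 0 lower. Mmp9, a gelatinase known as a marker of fast motor neurons, read 771, 609 and 539 in L5 and 95.1, 83.7 and 104 in OMN (log2 difference 2.56 ± 0.38, limma adjusted p = 0.0217). Mmp17, a membrane-anchored metalloproteinase, read 2221, 2415 and 2320 against 995, 941 and 1197. Adam19, a membrane sheddase, stood at 2365 ± 557 and 966 ± 86.0, and Adamtsl3, a matrix protein without protease activity, at 174 ± 32.8 and 26.0 ± 3.64. The list median was -0.04. All L5 arrays lay above all OMN arrays in 10 members, with 5 the other way, against 14.6% and 12.7% of all genes. Calls higher in L5 made up 0.951% of all genes. Tll1, a metalloprotease related to tolloid that is not in the list, was called lower (-3.33 ± 0.23, limma adjusted p = 0.000865). Among 34 proteoglycan and perineuronal net genes 2 were higher and 1 lower. Spock1, a secreted proteoglycan that inhibits proteases, read 4171, 4755 and 3639 in L5 against 1909, 1305 and 1637. Ptprz1, a receptor phosphatase that also occurs as the matrix proteoglycan phosphacan, read 737, 573 and 499 against 2111, 2016 and 1837 (-1.71 ± 0.19, all 3 probe sets called). Dcn, the proteoglycan decorin of connective tissue, was at 86.7 ± 15 in L5 and at noise level in OMN. Dcn is also a meningeal marker, and the summed level of 9 such markers was 791 to 1748 in L5 and 560 to 1273 in OMN, whose part in that result was not tested. Collagens, laminins and integrins gave 0 calls among 52 and 15 at an unadjusted p under 0.05, with Col5a2 at 26.8, 20.2 and 24.1 in L5 and 262, 186 and 260 in OMN (adjusted p = 0.0614). Mmp9, Mmp17, Adam19, Spock1 and Dcn lost their calls without each of the 6 arrays (adjusted p up to 0.120, 0.145, 0.183, 0.156 and 0.176), Adamtsl3 without 5 of them (up to 0.0748) and Ptprz1 without 4 (up to 0.0608). Adam19 and Dcn have 2 probe sets each, of which 0 were called.

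Growth factor genes showed calls in both directions. Igf1, insulin-like growth factor 1, a survival factor for motor neurons, read 276, 316 and 184 in L5 and 1595, 981 and 1199 in OMN (log2 difference -2.22 ± 0.28, limma adjusted p = 0.0124, 3 of 4 probe sets called). Igfbp5, a secreted binding protein for that factor, read 763, 740 and 647 against 2356, 1960 and 2278 (-1.59 ± 0.27). Htra1, a secreted serine protease that cuts such binding proteins, was higher at 4770, 5131 and 5911 against 2093, 2610 and 2304 (1.17 ± 0.18). Ligand and binding protein were thus brighter in OMN and the protease in L5, 2 lower and 1 higher of 17 members. Kitl, the stem cell factor, read 1134, 935 and 736 in L5 against 297, 209 and 339, and Pdgfd, a platelet-derived growth factor ligand, read 764, 594 and 489 against 62.0, 118 and 62.7. These were the 2 calls, both higher, among 35 genes of the neuregulin, ErbB and VEGF list. Neurotrophins, the GDNF and CNTF systems and fibroblast growth factors gave 0 calls among 11, 18 and 29 measured genes, with 4, 2 and 3 at an unadjusted p under 0.05. Gfra1, the GDNF coreceptor, read 3040, 2578 and 2405 in L5 and 1722, 1365 and 1150 in OMN, and Il6st, the shared signalling receptor of CNTF and related cytokines, 931, 851 and 638 against 1922, 1400 and 1903 (adjusted p = 0.0722 and 0.0721). Igf1 and Kitl lost their calls without 5 of the 6 arrays (adjusted p up to 0.0831 and 0.122), and Igfbp5, Htra1 and Pdgfd without each of them (up to 0.161, 0.143 and 0.126). Of the 2 probe sets of Igfbp5, 0 were called.

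Of 53 Wnt system genes 4 were higher in L5 and 0 lower. All L5 arrays lay above all OMN arrays in 9 of the 53 and below in 4, against 14.6% and 12.7% of all genes. Dkk3, a secreted protein of the Dickkopf family, read 4563, 4784 and 3790 in L5 and 990, 1167 and 1050 in OMN (log2 difference 2.01 ± 0.26, limma adjusted p = 0.0134). Sfrp1, a secreted Wnt antagonist, read 557, 677 and 721 against 142, 168 and 101 (2.14 ± 0.29, 4 of 5 probe sets called). Wnt7a, a ligand that is also listed among the slow and gamma motor neuron markers, and Lgr5, a receptor for R-spondins, stood at 366 ± 98.6 and 213 ± 40.7 in L5 and at 127 ± 96.8 and 72.5 ± 26.2 in OMN. Dlk1, a membrane ligand related to Delta that has been tied to fast motor neuron properties, read 1596, 1853 and 2055 in L5 and 273, 207 and 331 in OMN (2.71 ± 0.26, adjusted p = 0.00366). Hes5, a target of Notch, was lower at 22.4, 38.5 and 45.1 against 236, 273 and 169 (-2.24 ± 0.26). They were the calls among 34 Notch and Hedgehog genes, 1 in each direction. In the BMP and TGF-beta list 1 of 45 was higher and 2 lower. Fstl5, a follistatin-like protein, read 166, 95.9 and 105 in L5 against 438, 427 and 518, Acvr1c, an activin receptor, stood at 39.8 ± 21.3 and 209 ± 28.5, and Tgfb3, a ligand, at 79.7 ± 26.0 and 14.6 ± 11.9. Dlk1 held. Dkk3, Sfrp1, Lgr5 and Wnt7a lost their calls without each of the 6 arrays (adjusted p up to 0.0901, 0.0972, 0.195 and 0.189), Hes5 without 4 (up to 0.0658) and Fstl5, Acvr1c and Tgfb3 without 5 (up to 0.0809, 0.113 and 0.206). Of the 2 probe sets of Lgr5 and the 3 of Wnt7a, 0 were called.

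The retinoic acid list had 3 of 17 genes higher in L5 and 1 lower. Aldh1a2, the enzyme that makes retinoic acid, read 2512, 2535 and 1806 in L5 and 8.4, 34.5 and 5.3 in OMN, or at least 99.9-fold higher (limma adjusted p = 0.000688). Crabp1, which binds retinoic acid in the cytosol, read 1529, 1150 and 1029 against 57.4, 94.8 and 41.7 (log2 difference 3.99 ± 0.38). Crabp2, which carries it to its nuclear receptors, read 68.0, 215 and 251 against 29.2, 35.5 and 25.4 (1.92 ± 0.36). Rxrg, a retinoid X receptor, was opposite at 13.7, 26.7 and 21.3 in L5 and 511, 269 and 396 in OMN, at least 17.4-fold lower with 1 L5 array below the noise level (adjusted p = 0.00203). Aldh1a2, Crabp1 and Rxrg held, and Crabp2 lost its call without any of the 6 arrays but L5 replicate 1 (adjusted p up to 0.204). Hsd17b2, a dehydrogenase that inactivates sex steroids, was the 1 call among 18 steroid enzymes, at 597, 721 and 800 in L5 and 4.6, 10.1 and 76.7 in OMN. With 2 of 3 OMN arrays below the noise level it was at least 23.8-fold higher, and it lost the call without any of the 6 arrays but OMN replicate 3 (up to 0.0635).

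Among 65 transcription factors of neuronal identity 11 were called lower in L5 and 1 higher. Of these calls Tbx20 and Irx5, both lower, and Meis2, the higher one, also stand in the midbrain list. Of all genes 1.2% were called lower and 0.951% higher. L5 lay wholly above OMN in 14 of the 65 and wholly below in 24, against 14.6% and 12.7% of all genes, so members leaned both ways. Isl1, the LIM factor of motor neurons, read 495, 550 and 750 in L5 and 2084, 2127 and 2176 in OMN (log2 difference -1.83 ± 0.23, limma adjusted p = 0.0119). Lhx4, a LIM factor of motor neuron specification, read 383, 322 and 291 against 1610, 1458 and 1369 (adjusted p = 0.0498). Mnx1, the HB9 factor that fixes spinal motor neuron fate, was on the other side with 156, 147 and 80.9 in L5 and 0.9, 1.4 and 3.0 in OMN, or at least 6.71-fold higher. Mnx1 belongs to the motor neuron panel and is not among the 65. Zfhx3, a large zinc finger homeobox factor, read 136, 240 and 157 in L5 and 1097, 1401 and 1659 in OMN (-2.87 ± 0.25), with 5 of 6 probe sets called, and Zfhx4, of the same family, stood at 23.5 ± 5.02 and 182 ± 36.0. Irx6 and Irx2, Iroquois factors, stood at 50.9 ± 13.9 and 17.7 ± 13.5 in L5 and at 286 ± 26.1 and 363 ± 45.3 in OMN. Ppargc1a, the coactivator that drives mitochondrial gene programmes, was the 1 call among 33 nuclear receptors and coregulators, at 633, 667 and 436 in L5 and 1907, 1873 and 1937 in OMN (-1.72 ± 0.28, adjusted p = 0.0299), with all 5 probe sets called. Zfhx3 and Mnx1 held. Isl1, Zfhx4 and Irx6 lost their calls without 5 of the 6 arrays (adjusted p up to 0.0837, 0.0757 and 0.0717), and Irx2, Lhx4 and Ppargc1a without each of them (up to 0.131, 0.211 and 0.147). Of the 2 probe sets of Lhx4, 0 were called.

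RNA-binding factors of neurons were lower where called, 3 of 38. In 20 of the 38 all OMN arrays exceeded all L5 arrays and in 4 the other way, against 12.7% and 14.6% of all genes. The list median was -0.43. Celf4, a regulator of synaptic mRNAs, read 748, 826 and 943 in L5 and 2328, 2511 and 1727 in OMN (log2 difference -1.35 ± 0.21, limma adjusted p = 0.027). Elavl4, the neuronal HuD protein, which stabilises mRNAs, read 1069, 946 and 847 against 2088, 1948 and 2024. Celf6, of the same family as Celf4, stood at 6.20 ± 6.05 in L5, within noise, and 101 ± 33.1 in OMN. Of 43 cytoskeletal genes 2 were called lower and 1 higher. Their list median was 0.15, with 19 members wholly above OMN and 6 wholly below, and after quantile normalization -0.05, with 9 and 12. Fign, a microtubule-severing enzyme, read 162, 222 and 102 in L5 against 1581, 777 and 1098 (-2.71 ± 0.36), and Dcx, a microtubule protein of immature neurons, read 219, 184 and 207 against 520, 547 and 488. Nrn1, the activity-induced protein neuritin, which is not in that list, read 27.6, 60.9 and 53.2 in L5 and 1662, 1642 and 1214 in OMN (-4.62 ± 0.52). Prph, the intermediate filament peripherin, in which variants have been linked to ALS, was the 1 cytoskeletal gene called higher, at 10376, 10280 and 10114 in L5 and 4571, 4796 and 5166 in OMN (1.08 ± 0.19, adjusted p = 0.0348, but 0.77 and 0.0871 after quantile normalization), with 0 of its 4 probe sets called. Celf6 held, Nrn1 lost its call without 4 of the 6 arrays (adjusted p up to 0.0659) and Fign without any but L5 replicate 2 (up to 0.097). Celf4, Elavl4, Dcx and Prph lost theirs without each of the 6 (up to 0.143, 0.158, 0.113 and 0.163).

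Oxidative phosphorylation subunits gave 0 calls by limma among 72 measured, with 20 at an unadjusted p under 0.05, but their small differences leaned one way. The median difference was 0.34 and 64 were positive, and in 53 of 72, or 73.6%, all L5 arrays exceeded all OMN arrays, against 14.6% of all genes. Uqcr11, a complex III subunit, read 4037, 3832 and 5173 in L5 and 2309, 2722 and 2313 in OMN (log2 difference 0.82 ± 0.20, adjusted p = 0.104). Ndufs7, a complex I subunit, read 6068, 6261 and 7656 against 3595, 4608 and 3945. Cox6a2, the muscle-type subunit of complex IV and a gene picked after its value was seen, was opposite at 42.5, 27.9 and 33.6 in L5 and 76.6, 93.9 and 224 in OMN. These are bright genes, and brightness went with the same lean. Among the 1192 genes with a mean over 2000 the median difference was 0.18, and L5 lay above OMN without overlap in 44% and below in 10.6%. After quantile normalization of the arrays the oxidative phosphorylation median was 0.07, with 24 of 72 genes wholly above and 9 wholly below. Of all genes 14.6% lay wholly above and 12.4% wholly below on that scale. The shift of the median was thus mostly absent there, while the share of members wholly above still exceeded that of all genes.

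Proteasome and ubiquitin genes leaned the same way, and more of that lean remained after quantile normalization. Their median was 0.37, and in 23 of 36 all L5 arrays exceeded all OMN arrays with 0 the other way. That is 63.9%, against 14.6% of all genes and 44% of the genes with a mean over 2000. limma called 0, with 12 at an unadjusted p under 0.05. Psmb3, a core particle subunit, read 4441, 4569 and 5795 in L5 and 2939, 2790 and 2420 in OMN (log2 difference 0.85 ± 0.22), and Psmc3, an ATPase of the cap, read 2170, 2386 and 2532 against 1142, 1452 and 1493 (0.79 ± 0.18). After quantile normalization the median was 0.30, with 21 wholly above and 0 below. Leaving out each of the 9 arrays moved the median between 0.31 and 0.43, and that of oxidative phosphorylation between 0.26 and 0.41. Heat shock and DnaJ chaperones had 1 of 37 higher, Hspb8, a small heat shock protein of chaperone-assisted autophagy, at 1342, 1426 and 1871 in L5 and 673, 651 and 819 in OMN (1.09 ± 0.18, adjusted p = 0.0317, and up to 0.161 with 1 of the 6 arrays left out, without each of which the call was lost). Their median of 0.23 became 0.06 after quantile normalization.

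**Figure D5:**
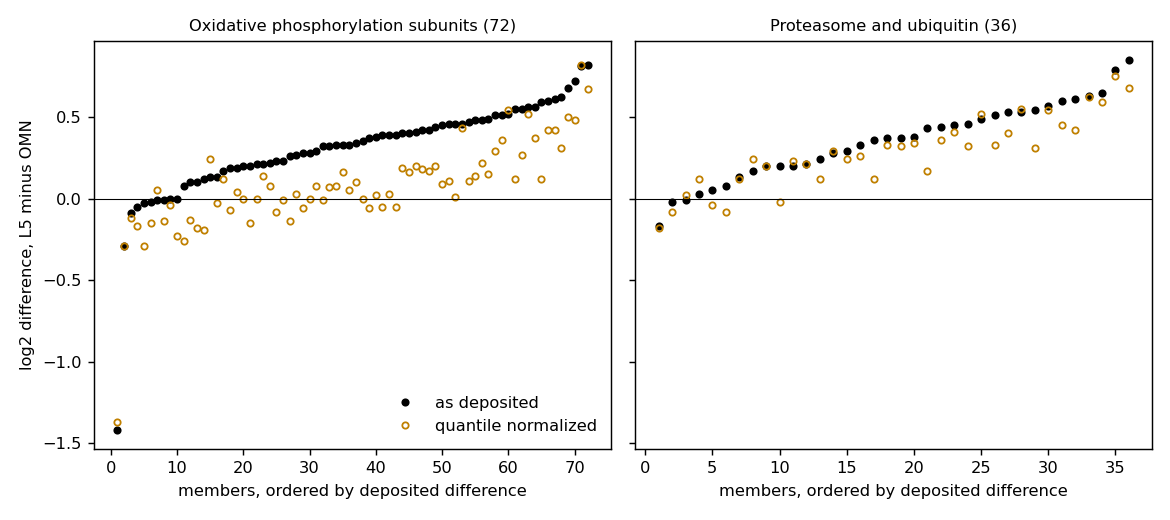
Points are the log2 differences, L5 minus OMN, of 72 oxidative phosphorylation subunits (left) and 36 proteasome and ubiquitin genes (right), ordered by the difference in the deposited values (black) and shown again after quantile normalization (open, ochre). The oxidative phosphorylation median is 0.34 as deposited and 0.07 after quantile normalization, and the proteasome median is 0.37 and 0.30.

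Lists tied to disease and stress gave few calls. Of 30 genes of inherited ALS 1 was called, Prph, with a list median of 0.23 that was 0.09 after quantile normalization. Unfolded protein response genes gave 0 calls among 28, with 1 at an unadjusted p under 0.05, autophagy and lysosome genes 0 among 33 with 5, kinesins, dyneins and dynactin 0 among 38 with 6, glycolysis and related genes 0 among 45 with 5, and cell death genes 0 among 46 with 10. Sqstm1, the autophagy receptor p62, read 1748, 1762 and 1692 in L5 and 1049, 883 and 1102 in OMN, and Grn, the lysosomal progranulin, 2173, 2200 and 2694 against 4322, 3659 and 3978 (limma adjusted p = 0.136 for both). Dctn2, a dynactin subunit of retrograde transport, read 3078, 3145 and 3386 against 1996, 1746 and 2083 (adjusted p = 0.138). These pairs of groups did not overlap, yet none of the differences passed the test. Syvn1, a ubiquitin ligase of the endoplasmic reticulum, read 231, 239 and 254 against 123, 176 and 142. Bad, a promoter of apoptosis, read 1147, 1204 and 1336 against 654, 844 and 611 (adjusted p = 0.105). Egln3, an oxygen-sensing prolyl hydroxylase, was the 1 call among 21 hypoxia genes, at 1038, 1330 and 978 in L5 and 115, 114 and 83.1 in OMN (a log2 difference of 3.24 ± 0.40 with limma adjusted p = 0.0112), and it lost the call without any of the 6 arrays but OMN replicate 1 (up to 0.0801). Cholesterol and sphingolipid genes gave 0 calls among 47 with 8 at an unadjusted p under 0.05, and antigen presentation and interferon genes 0 among 33 with 6.

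Several of the largest differences lay in genes outside these roles. Lamp5, a brain-specific lysosome-associated membrane protein, read 1216, 1003 and 1196 in L5 and 31.6, 39.0 and 5.8 in OMN, at least 40.1-fold higher with 1 OMN array below the noise level (limma adjusted p = 0.00299). Ecrg4, the precursor of the secreted peptide augurin, read 639, 945 and 952 against 23.6, 32.2 and 25.9 (log2 difference 4.30 ± 0.25, adjusted p = 0.000483). Il1f9, an interleukin-1 family cytokine, read 200, 243 and 165 in L5 and 14.6, 5.1 and 0.9 in OMN, or at least 10.9-fold higher. All 3 held. In the other direction Cnpy1, a regulator of fibroblast growth factor signalling near the midbrain boundary, read 2.4, 2.0 and 2.6 in L5 and 450, 457 and 295 in OMN, at least 21.5-fold lower. Krt25, a keratin of the hair root sheath, read 18.4, 35.3 and 29.3 against 438, 685 and 733 (-3.85 ± 0.26, adjusted p = 0.000865). Tll1 read 48.0, 33.4 and 32.4 against 455, 581 and 540. Rnf152, a lysosomal ubiquitin ligase, stood at 46.9 ± 22.9 in L5 and 451 ± 19.7 in OMN. All 4 held. Slc6a7, the brain proline transporter, read 26.2, 229 and 70.8 in L5 and 548, 1006 and 985 in OMN, and lost its call without L5 replicate 3, OMN replicate 1 or OMN replicate 3 (up to 0.0757).

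Markers of other cells were present in both pools and differed for some of them. Of 14 astrocyte markers 1 was called, and their sum was 25288 to 27219 in L5 and 21174 to 21768 in OMN. Gfap, the astrocyte filament, read 392, 351 and 233 in L5 and 12.2, 19.1 and 22.7 in OMN (at least 15.9-fold higher, limma adjusted p = 0.00352), whereas Aqp4, the astrocyte water channel, read 4267, 4089 and 4882 against 3112, 3464 and 3406 (adjusted p = 0.376). Oligodendrocyte markers gave 0 calls among 14, 0 at an unadjusted p under 0.05 and sums of 16324 to 17442 in L5 and 12822 to 14625 in OMN, and Mbp read 7692, 7689 and 7452 against 5722, 5568 and 6342. Microglia markers summed to 1449 to 1585 and 1267 to 1727, and endothelial and mural markers to 4483 to 4986 and 4980 to 5960, with 0 calls in both lists and 1 and 2 members at an unadjusted p under 0.05. Of 8 Schwann cell and sensory ganglion markers 2 were higher and 3, Egr2, Scn10a and Tlx3, stayed at noise level on all 6 arrays. Pmp22, a myelin protein of peripheral nerve, read 1863, 2202 and 2115 in L5 and 94.0, 143 and 167 in OMN (log2 difference 3.81 ± 0.22), and Prrxl1, a sensory relay factor, stood at 52.3 ± 33.4 and 5.83 ± 7.16. Gfap and Pmp22 held, and Prrxl1 lost its call without each of the 6 arrays (up to 0.126). The part of these cells in the receptor, matrix and signalling results was not tested.

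Markers of other neurons bear on the transmitter genes. Slc6a5, a glycine transporter that marks glycinergic cells, read 457, 558 and 637 in L5 and 17.4, 39.2 and 11.1 in OMN, at least 23.1-fold higher with 2 of 3 OMN arrays below the noise level (limma adjusted p = 0.00182). Gad2, a GABA synthase, read 288, 267 and 251 against 1209, 1443 and 1285 (log2 difference -2.22 ± 0.19), and Gad1, the other one, 77.5, 145 and 79.7 against 236, 571 and 380. The glycine marker was thus brighter in L5 and the GABA markers in OMN, while the 6 inhibitory neuron markers summed to 1643 to 2249 and 1913 to 2681. Slc17a6, the vesicular glutamate transporter, read 502, 479 and 389 in L5 and 1219, 1183 and 968 in OMN, while Slc17a7, Tlx3, Tbr1 and Neurod6 of the same excitatory list were at noise level on all 6 arrays. Dopamine and noradrenaline neuron markers summed to 436 to 577 in L5 and 1243 to 1428 in OMN, with 4 of 9 lower in L5. En1, which is also a midbrain patterning factor, was the largest of these calls at 12.6, 22.2 and 28.5 in L5 and 218, 334 and 286 in OMN, and it held. Without it the other 8 summed to 407 to 564 and 958 to 1093. Th, tyrosine hydroxylase, read 17.7, 21.2 and 9.0 against 75.2, 114 and 77.6, Ddc stood at 43.6 ± 20.9 and 140 ± 9.67, Slc6a2 at 15.2 ± 3.73 and 46.6 ± 11.8, and the dopamine transporter Slc6a3 and Pitx3 were at noise level on all 6 arrays. The 6 markers of Edinger-Westphal peptide neurons, which adjoin the oculomotor nucleus, summed to 721 to 931 in L5 and 2348 to 4851 in OMN. Cartpt is 1 of them and the only one called, and the other 5 summed to 642 to 852 in L5 and 570 to 1026 in OMN, so that their sums overlapped. Ucn, their defining peptide, read 18.8, 32.1 and 3.9 in OMN against 4.3, 4.3 and 4.9 in L5. The part of these neurons in the Cartpt, GABA and catecholamine results was not tested. Slc6a5 and Gad2 held, Ddc lost its call without 5 of the 6 arrays (up to 0.135), and Gad1, Slc17a6, Th and Slc6a2 without each of them (up to 0.167, 0.148, 0.183 and 0.193). Of the 2 probe sets of Gad1 and the 4 of Slc6a2, 0 were called.

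The calls depend in part on how dim values are scaled and on the third pool. Of the 133 called genes chosen by the naming rule 90 lost their call with a pseudocount of 1, 23 lost it when only the L5 and OMN arrays were fitted with the replicate block, and 0 changed direction in any alternative. In 44 called genes the L5 mean and in 48 the OMN mean lay below the noise level, so their size is known only as a lower bound. Called genes with some dim-pool arrays below that level but a mean above it, such as Lamp5 and Rxrg, are bounded too and lie outside these counts.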

How the data were processed

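Motor neuron RNA was measured on 9 arrays, 3 per pool. The authors deposited 1 table of linear intensity values for 45101 probe sets, each array scaled to a trimmed mean of 250. The summarising software was not given in the sources used here. From it 64 control probe sets were left out, and 34945 probe sets named 1 gene in the platform annotation, 932 several and 9160 none. Gene IDs of 34741 were found in the RefSeq table of GRCm38.p6. A gene took its probe set with the highest mean of log2(intensity + 16) over all 9 arrays. Log2 differences are on that scale, which understates changes of dim genes. Promoters came from the RefSeq table of the same build; no array coordinates were used.

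R 4.3.3 and limma 3.58.1 (lmFit, contrasts.fit and eBayes) were applied to all 9 arrays, with pool as factor and the replicate number as block, since the protocol says that each animal gave all 3 pools. Benjamini-Hochberg adjustment covered 18193 genes. No label states that equal replicate numbers mark the same animal, so matching by number is an assumption. Over 6876 genes with a mean above 200, deviations of equally numbered L5 and OMN arrays correlated at -0.00427, -0.0734 and -0.00929, which gives that matching no backing. The fit was tested on simulated data. Errors are SE for differences and SD over 3 arrays for intensities, and the number of arrays limits the precision. The noise level of 18.3, chosen with the values known, is the highest reading of 27 bacterial control probe sets over all 9 arrays. A lower bound divides the bright pool's geometric mean by the dim pool's, values under 18.3 being raised to 18.3.

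Members and the 87 gene lists were chosen with earlier results of these data known, and 2047 of 2229 listed symbols were measured. Genes were named by rule: the 15 largest called differences in each direction with the same sign in all 3 numbered pairs, without provisional names, Hox and midbrain factors; up to 6 called members of each list by p; 2 members of a list without calls; a motor neuron panel; and defining markers of other cells. Alternatives were pseudocounts of 1 and 64, genes with a mean over 50, quantile normalization, median centring, the mean of probe sets, no block, only the 6 arrays, trend and robust variances, array weights, and each array left out. One gene list, and genes of it that the rule picked, are not reported here.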

Additional observations from a re-analysis of the deposited data

How the results depend on the processing

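None of the 133 called genes chosen by the naming rule changed direction in any alternative, and 32 stayed called under all of them. Genes that were not called did change sign, and with 1 L5 or OMN array left out Slc5a7 ran from -0.22 to 0.10, Slc18a3 from -0.25 to 0.50 and Ache from -0.24 to 0.18 in log2 difference. The 392 calls (173 higher, 219 lower in L5, 44.1% higher) became 101 (62 and 39, 61.4% higher) with a pseudocount of 1, 609 (299 and 310) with 64, 946 (533 and 413, 56.3% higher) with robust, trended variances, and 677 (313 and 364) with array weights. The share of higher genes thus differed between settings, and it was 49.9% with quantile normalization and 49.7% with median centring. Leaving out 1 L5 or OMN array gave 82 to 107 calls, 45 to 54 of them higher and 37 to 54 lower, and leaving out 1 DL array gave 329 to 374, with 145 to 166 higher and 180 to 208 lower. A fit with an array left out has fewer residual degrees of freedom, and the part of this in the counts was not tested. With no replicate block the fit called 574 genes, 262 of them higher, and it shared 372 with the main fit. Cadm1, Slc6a2 and Wnt7a lost their calls without the block (limma adjusted p = 0.0502, 0.0602 and 0.128). Only the L5 and OMN arrays gave 397 calls with the block and 846 (395 and 451) with no block. Quantile normalization, median centring, a mean over 50 and the mean of probe sets gave 399, 392, 457 and 478. Prph and Unc5d lost their calls with the first of these (0.0871 and 0.0587), Cadm1, Lhx4, Pcdh9 and Unc5d with the second (0.0537, 0.055, 0.0521 and 0.0566), and 15 named genes with the mean of probe sets. The cause of these moves was not tested. Signal over background limits at least the 44 calls with an L5 mean and the 48 with an OMN mean below the noise level.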
